A study of Homo sapiens with 2 samples.

Results

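Rxra, Nr1h3, Nr0b2, Vdr and Ncoa2 are the nuclear receptors outside the PPAR family, and a coactivator of nuclear receptors, that an adipogenesis PCR array measured in HepG2 cells. They were chosen by what they encode and by name, with earlier results of these data known, and make up 5 of the 84 genes of the array, 4 of them receptors and 1 the coactivator. HepG2 is an established line of human hepatocellular carcinoma cells. The control sample (CTR) received no extract, and the MOES sample was grown with an aqueous extract of Moringa oleifera seeds for 72 h, after 24 h allowed for adhesion. Both samples came from the same line and differ by the extract alone as far as the labels say. The sample title states 5 mg/mL of MOES and the array protocol states 2.5 mg/mL, so the dose behind the deposited values is not settled. Each group held 1 sample, no value below has a replicate, and no test between the groups was possible. The comparison asked whether MOES alters transcripts of lipid metabolism in a liver cell line. Symbols follow the deposited tables, which spell these human genes in the mouse style.

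Nuclear receptors are transcription factors that are switched by small lipophilic ligands. RXR alpha, encoded by Rxra, is the shared partner that pairs on DNA with many of the others, including LXR alpha (Nr1h3), which senses oxysterols and drives fatty acid synthesis and cholesterol export, the vitamin D receptor (Vdr) and the PPARs. SHP (Nr0b2) is an atypical receptor without a DNA-binding domain. In the liver it is induced by the bile acid receptor and represses the transcription of bile acid synthesis enzymes. Ncoa2, also known as GRIP1 or TIF2, is a p160 coactivator that ligand-bound receptors recruit to activate their target genes.

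The array reports the threshold cycle (Ct), the PCR cycle at which fluorescence passes a set level, so that a later Ct stands for less template and a step of 1 cycle for a factor of 2. The tables stop at a Ct of 35, where 6 genes lay in the control sample and 25 after MOES. A gene at 35 in the MOES sample alone has only a bound on its change. Every MOES gene value was a whole cycle. How the whole values arose is not stated, and the ranges below take them as rounded to the nearest cycle. B2m, Gusb and Hsp90ab1, the reference genes behind the deposited values, differed between samples by at most 0.02 cycles. Unlike the gene wells, these 3 kept decimals with MOES, at 23.82, 25.66 and 25.30. Actb and Gapdh, the other reference genes, were at 35 with MOES, as were the 3 RTC wells, which control reverse transcription, and in both samples the 3 PPC wells, which control the PCR itself. The control wells thus do not tell a well with little template from one in which the PCR failed. In the control sample the RTC wells were at 31.41, 32.01 and 32.10. They were later with MOES by at least 3.59, 2.99 and 2.90 cycles, against 1.77 for Vdr and 3.60 for Rxra. Whether the changes of the genes share a source with this was not tested. The only measure of well-to-well spread came from the RTC wells of the control, whose SD of 0.375 cycles gives 0.530 cycles for a difference between single wells. The 0.02 cycles for B2m, Gusb and Hsp90ab1 are far less than this spread of late wells, for a reason that was not tested. The array holds few markers of the labelled cell type. In the control, the hepatocyte markers had a Ct of 28.76 (Nr0b2), 31.2 (Cebpa) and 33.91 (Agt, angiotensinogen, a major secreted product of hepatocytes), while 4 of the 6 adipocyte markers on the array were earlier than all 3 of them, from 25.1 for Adig to 27.61 for Retn. These assays, whose Ct also depends on their primers, thus do not mark the sample as hepatocyte-like, and the part of this in the results below was not tested.

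Promoter sequences of RXRA and NR1H3 were found in RefSeq (GRCh38.p14), and those of NR0B2, VDR and NCOA2 were not matched. The 2 matched genes are shown, since receptors of this class bind repeats of the half-site AGGTCA. They happen to have given the earliest and the latest wells of the group. Both genes have further start sites in RefSeq, and no window before those held a half-site. Each sequence is the 250 bases before the outermost start site, on the plus strand, with any half-site on either strand in capitals. The RXRA window, chr9:134326205-134326454, overlaps no annotated gene, and the NR1H3 window, chr11:47248050-47248299, overlaps the neighbouring gene ACP2.
RXRA: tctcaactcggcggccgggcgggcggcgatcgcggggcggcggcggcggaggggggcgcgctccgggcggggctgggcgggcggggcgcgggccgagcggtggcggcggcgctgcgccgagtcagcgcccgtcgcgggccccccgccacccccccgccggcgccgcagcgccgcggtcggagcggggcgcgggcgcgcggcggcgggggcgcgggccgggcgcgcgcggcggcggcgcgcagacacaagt
NR1H3: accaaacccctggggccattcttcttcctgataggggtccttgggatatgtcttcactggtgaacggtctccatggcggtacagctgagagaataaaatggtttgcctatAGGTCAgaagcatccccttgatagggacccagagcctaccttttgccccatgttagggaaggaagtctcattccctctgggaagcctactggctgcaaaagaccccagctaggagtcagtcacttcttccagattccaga
The RXRA window was 89.2% G and C, against 57.2% over all 35116 windows of this kind, and held no half-site. The NR1H3 window was 51.6% G and C and held 1 half-site, which begins 140 bases before the start site. Of all windows, 12.1% held at least 1. The array measured transcripts and no binding, so these letters are a description of the sequence only.

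All 5 genes had a later Ct in the MOES sample, which stands for less template where the PCR in the well worked. The fold changes, which count each cycle of Ct relative to the mean of B2m, Gusb and Hsp90ab1 as a factor of 2, lay below 0.5 for 5 of the 5 and above 1.5 for 0. These are the limits of the study's methods, and the counts cover the 5 named genes, not every coregulator on the array. Over the whole array 67.9% of the genes (57 of 84) lay below 0.5 and 8.33% (7 of 84) above 1.5, so a lower level was the common outcome on this array. The median log2 fold change of the 5 genes was -2.44, against -1.78 over all 84 genes with wells at 35 taken as 35, a median that could be as low as -2.50. That median is the value of Nr1h3, which is an upper bound. Without Nr1h3 the median of the other 4 was -2.58. In RNA from a whole culture, fewer cells that express a gene and less RNA of it per cell cannot be told apart.

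**Figure D1:**
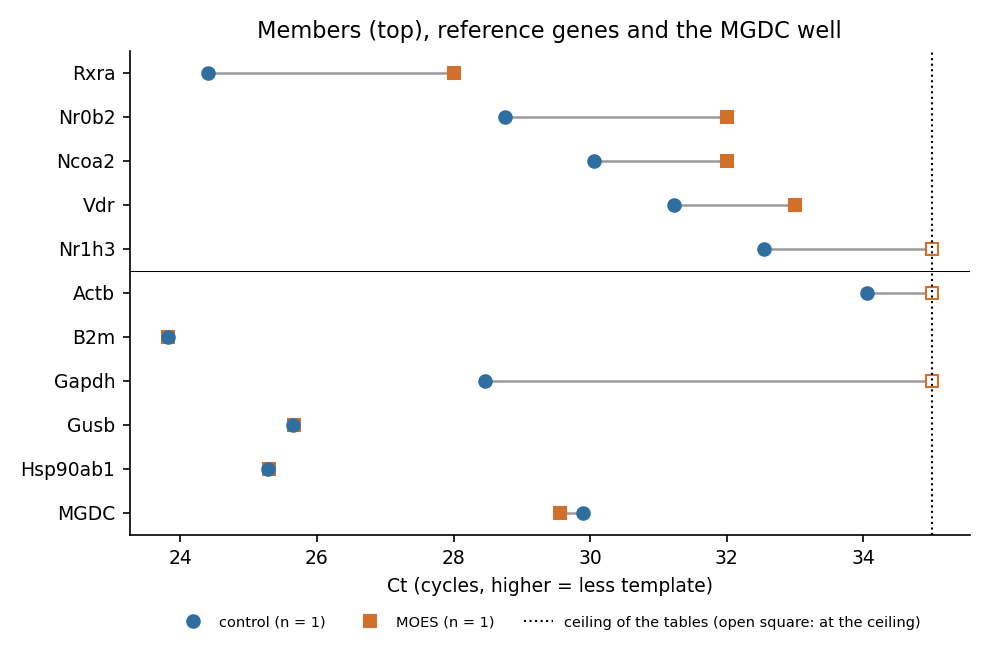
Ct in cycles (x axis, later means less template) of the 5 genes, above the line, and of the reference genes and the MGDC well, below it, with 1 control sample (blue circles) and 1 MOES sample (orange squares, open at the ceiling of 35). All 5 genes moved to a later Ct, by 1.77 cycles for Vdr, 3.60 for Rxra and at least 2.45 for Nr1h3, while B2m, Gusb and Hsp90ab1 stayed in place and Actb and Gapdh reached 35.

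Rxra, the common partner of the group, gave the earliest well of the 5 in both samples. Its Ct was 24.4 in the control and 28 with MOES. In the control only 1 gene of the array was earlier. The deposited level relative to the reference genes went from 1.43 to 0.119. The log2 fold change was -3.59, a level 12.0-fold lower, and the lowest value among the 4 genes measured in both samples, although its difference from Nr0b2 is within the spread. With the MOES well moved by 0.5 cycles either way, the room left if it was rounded to the nearest cycle, the level was from 8.51-fold to 17.0-fold lower. In the order of the 84 log2 fold changes from the lowest up, Rxra lay from place 13 to place 32, because genes at 35 with MOES have no settled place. This range takes the other Ct as recorded, and the room of whole cycles would widen it.

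Nr0b2, the corepressor-like receptor SHP, crossed the threshold at cycle 28.76 in the control and 32 with MOES. Its relative level went from 0.0698 to 0.00743. This is a log2 fold change of -3.23, or 9.38-fold lower, with a range of 6.63-fold to 13.3-fold from 0.5 cycles either way. With whole-cycle values as recorded, its place from the lowest lay between 18 and 35. The MOES value shares its Ct of 32 with 20 other genes, since 21 genes were recorded there.

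Nr1h3, which encodes LXR alpha, was the latest of the 5 in both samples. Its Ct was 32.55 in the control and 35, the ceiling, with MOES. The log2 fold change was -2.44 or lower, so the level was at least 5.43-fold lower if the PCR in that well worked. Its relative level in the control was 0.00502, and with MOES it was listed at 0.000928, the value of any well at 35. No order can be given between Nr1h3 and the other 24 genes at 35 in the MOES sample.

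Vdr encodes the vitamin D receptor. Its Ct was 31.23 in the control and 33 with MOES. The relative level went from 0.0126 to 0.00371, a log2 fold change of -1.76 and a level 3.39-fold lower, or 2.39-fold to 4.79-fold with 0.5 cycles either way. With whole-cycle values as recorded, its place from the lowest lay between 43 and 53.

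For the coactivator Ncoa2 the Ct went from 30.06 in the control to 32 with MOES. Its relative level went from 0.0283 to 0.00743, the same MOES value as that of Nr0b2. The log2 fold change was -1.93 and the level 3.81-fold lower, with a range of 2.69-fold to 5.39-fold. Its place from the lowest, again with values as recorded, lay between 38 and 50, a range that overlaps that of Vdr. Each of the 5 changes was larger than 1.06 cycles, which is 2 SD of a difference between single wells. That SD comes from 3 late wells of one plate and covers no biological variation.

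**Figure D2:**
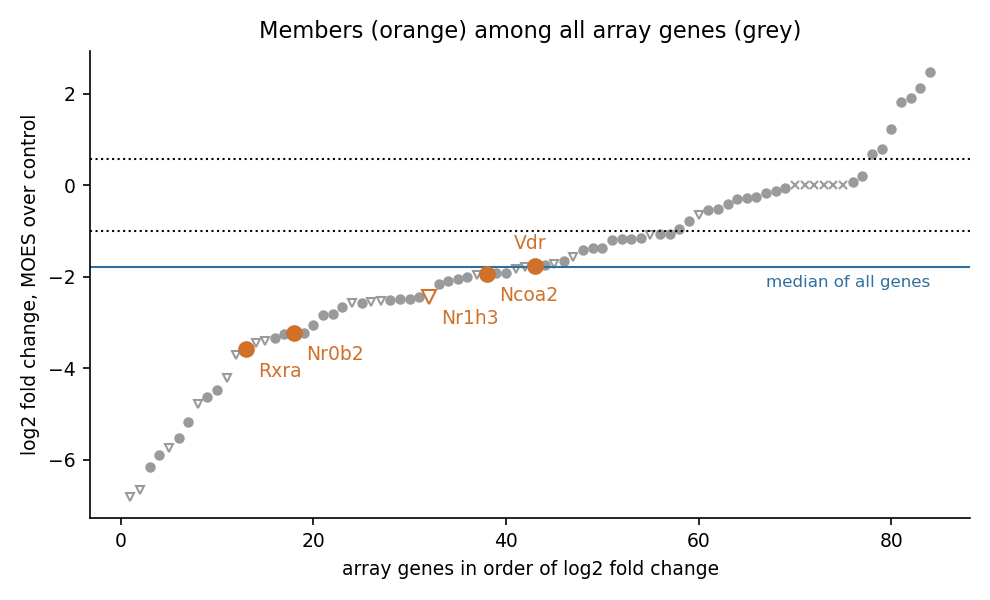
Log2 fold change of MOES over control (y axis) for the 84 array genes in rising order (x axis), with the 5 genes in orange. Open triangles are upper bounds, crosses are genes at 35 in both samples, dotted lines mark fold changes of 0.5 and 1.5, and the blue line is the median of -1.78. Rxra and Nr0b2 lie in the lower part of the array, and Vdr and Ncoa2 lie near that median.

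A signal from genomic DNA bears on the late wells of this group. The MGDC well, which amplifies genomic DNA, gave a Ct of 29.9 in the control and 29.56 with MOES. In the control, Vdr, Nr1h3 and Ncoa2 were later than this well, Ncoa2 by only 0.16 cycles, and Nr0b2 was at -1.14 cycles from it, that is earlier. With MOES, 4 of the 5 genes were later than it, and Rxra alone was earlier, at -1.56 cycles from it. Over the array, 57.1% of the genes were later than the MGDC well in the control and 82.1% with MOES. The part of genomic DNA in the signal of these wells was not tested.

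Rxra was the earliest well of the group by a wide margin in both samples. The order of the Ct in the control was Rxra, Nr0b2, Ncoa2, Vdr and Nr1h3, and it spanned 8.15 cycles. The gap from Rxra to Nr0b2 was 4.36 cycles. The 3 later gaps were 1.30, 1.17 and 1.32 cycles, each just over 2 SD of a difference between single wells. With MOES the order was the same except that Ncoa2 and Nr0b2 were level at 32. Vdr followed them by 1 cycle, which is less than 2 SD, and Nr1h3 came last at the ceiling. The Ct of different genes also depends on the primers and amplicons, whose efficiencies are not given, so this order is one of wells and not of transcript numbers.

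The receptors were then compared with the coactivator. Subtracting the change of Ncoa2 removes the reference genes, so this comparison holds for any choice of them. The log2 fold change of Rxra was -1.66 relative to Ncoa2, a fall 3.16 times as large. Of the 3 differences with a measured value it is, as recorded, the only one past 1.5, which is 2 SD of a difference between 2 such changes. Nr0b2 was at -1.30 relative to Ncoa2. With each MOES well moved by 0.5 cycles, Rxra had room from -2.66 to -0.66 and Nr0b2 from -2.30 to -0.30, so either could lie on either side of 2 SD. Nr0b2 and Ncoa2 shared a Ct of 32 with MOES, so the whole of this difference came from the control, where Nr0b2 was earlier by 1.30 cycles. Vdr was at 0.17 relative to Ncoa2, with room from -0.83 to 1.17 when each MOES well is moved by 0.5 cycles, so neither direction can be given. Nr1h3 was at -0.51 or lower. The median of the 4 receptors was -2.84 or lower, since Nr1h3 enters it as a bound, and it differed from Ncoa2 by -0.90 or lower on the log2 scale. Without Nr1h3, the well at the ceiling, it was -1.30. Neither value, as recorded, passes 2 SD of a difference between 2 single changes. The spread of a median over several genes was not measured, so no separation of the receptors as a group from the coactivator can be given.

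**Figure D3:**
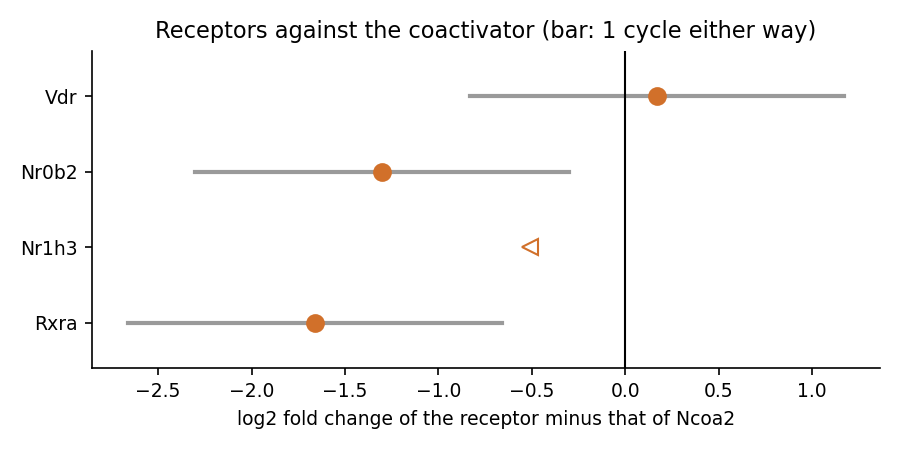
Log2 fold change of each receptor minus that of Ncoa2 (x axis), 1 sample per group. Bars show the room left if each MOES well was rounded to the nearest cycle, 1 cycle either way for a difference of 2 wells. The open triangle of Nr1h3 is an upper bound. Rxra and Nr0b2 lie left of 0 with their bars, and the bar of Vdr spans 0.

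Among the receptors themselves, Rxra was lower than Vdr by a log2 difference of -1.83, which passes 2 SD as recorded but ranges from -2.83 to -0.83 within the room of whole cycles. Nr0b2 and Vdr differed by -1.47 and Rxra and Nr0b2 by -0.36, both within 2 SD. Measured from the median of the 59 genes that stayed below the ceiling in each sample, which is again free of the reference, Rxra was at -1.94, Nr0b2 at -1.58, Nr1h3 at -0.79 or lower, Ncoa2 at -0.28 and Vdr at -0.11. Vdr and Ncoa2 thus lay near the middle of the measured genes.

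The direction of the changes rests on the reference genes. A change of reference moves all genes by one common amount in log2 fold change. The mean of all 5 reference genes adds 1.49, after which Rxra was at -2.10, Nr0b2 at -1.74, Ncoa2 at -0.44 and Vdr at -0.27, and 2 of the 5 genes were below 0.5 with wells at 35 taken as 35. Actb alone adds 0.94, leaving 3 of the 5, Nr1h3 among them, below 0.5 with wells at 35 taken as 35. The Ct of Actb was already 34.05 in the control, so the ceiling left little room for a larger recorded shift. With Gapdh alone, which adds 6.53, all 4 genes with a Ct under 35 were higher with MOES, from 2.94 for Rxra to 4.77 for Vdr. Nr1h3, Actb and Gapdh were all at 35 with MOES, so Nr1h3 has no direction against Actb or Gapdh. Because Actb and Gapdh were at the ceiling with MOES, these added amounts are minimums, and the counts below 0.5 are not settled. The values do not show which reference genes kept their level. The order among the 4 genes with a measured change was the same under each of these references, as it must be.

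**Figure D4:**
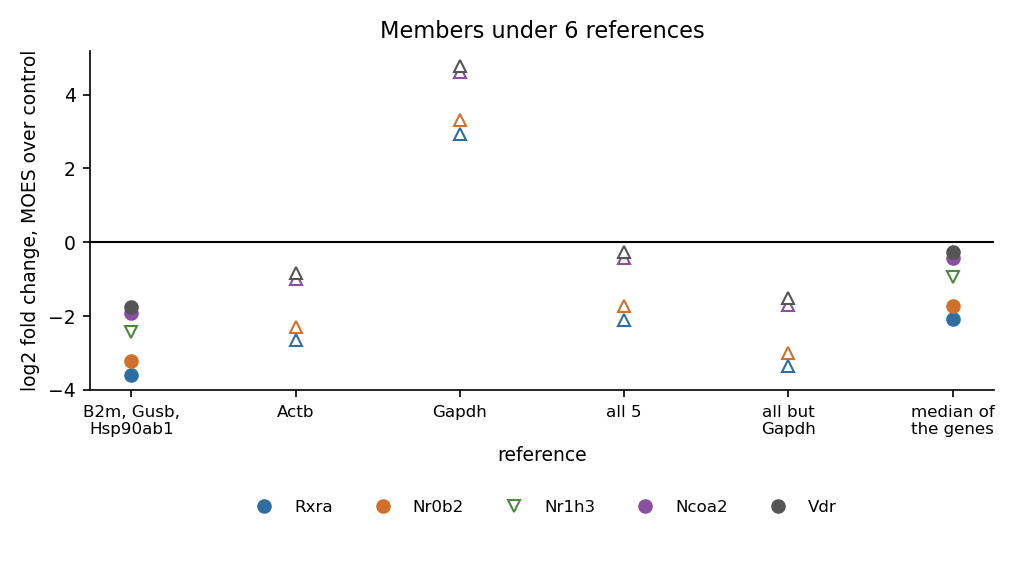
Log2 fold change of MOES over control (y axis) of the 5 genes under 6 references (x axis), 1 sample per group. Filled circles are measured values, open triangles pointing up are lower bounds because Actb or Gapdh was at the ceiling, and the open triangle pointing down is the upper bound of Nr1h3, left out where the reference is itself at the ceiling. All 5 genes move together, and the 4 shown lie above 0 with Gapdh alone.

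The array also holds partners and known targets of these receptors. Of 9 such genes, 8 had a fold change below 0.5, 3 of them as bounds, and 1, Ppard, lay above 1.5 as recorded. As above, 67.9% of all array genes lay below 0.5. Among the PPARs, which pair with RXR on DNA, Pparg, the master regulator of fat cell differentiation, went from a Ct of 19.82 to 25, a log2 fold change of -5.17. Ppara, the receptor that drives hepatic fatty acid oxidation, went from 28.51 to 33, a log2 fold change of -4.48. Ppard went the other way, from 32.78 to 32, a log2 fold change of 0.79. The PPARs thus lay on both sides of 0.

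The genes that LXR is known to activate were all below 0.5. Srebf1, which encodes the SREBP-1 regulator of fatty acid synthesis, went from 32.44 to 35, a log2 fold change of -2.55 or lower. Fasn, fatty acid synthase, went from 31.27 to 35 and was at -3.72 or lower. Lpl, lipoprotein lipase, went from 29.07 to 31, a log2 fold change of -1.92. Srebf1 had nearly the same wells as Nr1h3 itself, both late in the control and at the ceiling with MOES. The PGC-1 coactivators lay lower than the p160 coactivator Ncoa2. Ppargc1a went from 24.47 to 30, a log2 fold change of -5.52, and Ppargc1b from 31.54 to 35, at -3.45 or lower. Cdkn1a, a cell cycle inhibitor that the vitamin D receptor can induce, went from 24.81 to 26, a log2 fold change of -1.18, which differs from that of Vdr by less than 2 SD.

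**Figure D5:**
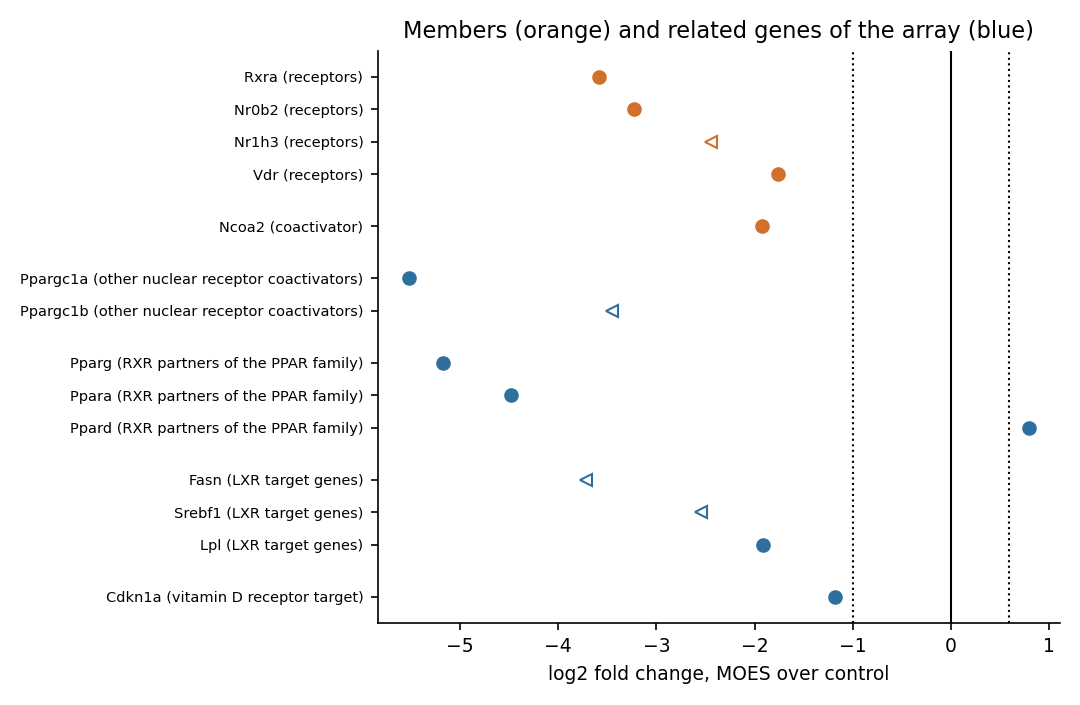
Log2 fold change of MOES over control (x axis) of the 5 genes (orange) and of partners, coactivators and known targets on the array (blue), 1 sample per group. Open triangles are upper bounds and dotted lines mark fold changes of 0.5 and 1.5. Ppard, whose change is within 2 SD, is the only gene shown that lies right of the upper line. Ppargc1a, at -5.52, has the lowest value of those measured in both samples.

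For each gene the nearest other gene of the array was found by its distance in cycles over the Ct of the 2 samples, among genes with a Ct under 35 in both. Nr0b2 lay 0.01 cycles from Tcf7l2, a WNT pathway transcription factor with a Ct of 28.77 and 32. Ncoa2 lay 0.07 cycles from Klf15 and Vdr 0.11 cycles from Sirt2. Rxra had no neighbour within the SD of 0.530 cycles, and its nearest gene, Shh, was 0.78 cycles away, with a log2 fold change of -2.81. Nr1h3, at the ceiling with MOES, has no settled neighbour. With 2 samples and MOES values in whole cycles, many genes are bound to lie close, and such closeness is a description only.

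Rxra and Vdr are on the study's list of predicted human targets of Moringa miRNAs, and Nr1h3, Nr0b2 and Ncoa2 are not. The study ran its prediction on the gene panel of this array and reported the human targets among the genes altered by MOES. Being altered here was thus a condition of the list, and the list is not independent evidence on these changes. The log2 fold change was -3.59 for Rxra and -1.76 for Vdr.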

How the data were processed

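Control and MOES-treated HepG2 cells, 1 sample each, were measured on an RT2 Profiler adipogenesis array with SYBR Green. The authors deposited Ct values, recorded here as a score per well, under a header that calls them averages. The number of averaged wells is not given, and the standard deviation columns hold no numbers. They also deposited delta Ct on a log2 scale and the ratio 2 to the power of minus delta Ct, both from the array maker's web software. The authors' own table of fold changes was not used. Column names gave the groups, the treated column being the one compared with the control.

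Fold changes were computed from the deposited Ct with B2m, Gusb and Hsp90ab1 as reference, and the deposited delta Ct differed from this by at most 0.0057 cycles. All 84 genes were used for shares and ranks. The genes and lists were chosen with earlier results of these data known. A further gene that the selection rule counts is not reported here, so the counts over the 5 genes do not describe the whole group. The text names these 5 genes, control wells, the listed partners, targets and markers, and the nearest gene to each of the 4 measured in both samples. The alternatives were 5 other references, 2 treatments of late wells, the deposited delta Ct, shifts and rounding of Ct, and 3 other pairs of limits. Calculations used Python 3.11.15, numpy 2.4.6 and matplotlib 3.10.9 and were tested on simulated data.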

Additional observations from a re-analysis of the deposited data

Results flagged for a closer look

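The MGDC well, which the comparisons between genes do not use, gave a signal above its level in the control sample. Its Ct was 29.9 in the control and 29.56 with MOES, a log2 difference of 0.35 relative to B2m, Gusb and Hsp90ab1. The SD between single wells, 0.530 cycles, is larger than this.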

How the results depend on the processing

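With wells at 35 taken as 35, the number of the 5 genes below 0.5 was 3 with Actb alone, Nr1h3 among them without a settled direction. It was 2 with the mean of all 5 reference genes or the median Ct of the genes. With Gapdh alone it was 0, and 5 lay above 1.5, Nr1h3 again without a settled direction. Counts with Actb or Gapdh in the reference are not settled, since both were at 35 with MOES. The number below 0.5 was 3 with Ct above 32 set to 32 and 3 with the MOES gene wells lowered by 1 cycle. It was 4 of 4 when genes at 35 were left out, and 5 under the other alternatives. The median log2 fold change was -1.50 with Actb, -0.95 with all 5 and 4.09 with Gapdh alone. Each of these is the value of Nr1h3 against a reference with wells at 35, so none is settled in either direction. The median was -0.94 or lower with the median Ct and -1.44 or lower with the wells lowered by 1 cycle. Those values too are Nr1h3, as upper bounds. Gapdh alone put Rxra at 2.94, Nr1h3 nominally at 4.09, Nr0b2 at 3.30, Vdr at 4.77 and Ncoa2 at 4.60, by adding one amount to every gene. Setting Ct above 32 to 32 put Nr1h3 at 0.01, since both its wells are later than that. The receptors' median minus Ncoa2 was then -0.06. It was 0.10 or -1.90 when the MOES receptor wells and the coactivator well were moved by 0.5 cycles in opposite directions, an alternative chosen after seeing the data. No paired analysis was possible because there was 1 sample in each group. Late wells limit Nr1h3 most, as it is known only as a bound.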
